A study of Mus musculus with 36 samples.

Results

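A set of 133 array probes, out of 25030 in the deposited series matrix, read transcripts that were high in fibroblasts and lower in pluripotent cells. In secondary fibroblasts these probes read higher, not lower, with the reprogramming factors induced than without. They were chosen by their own values, as log10 brightness in that matrix. The mean of untreated primary fibroblasts had to be at least 2.5, it had to lie at least 0.6 above the mean of iPS and ES cells, and secondary fibroblasts given doxycycline without tamoxifen had to lie at least 0.3 above those given neither drug on both day 3 and day 6. Of 2052 probes that met the first pair of conditions, 640 instead lay at least 0.3 lower with doxycycline on both days. Expression was read on 36 2-colour Agilent arrays, 2 for each of 18 groups of mouse cells, each array with the sample in Cy3 and a pooled reference of mouse cell line and ES cell RNA in Cy5.

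Secondary mouse embryonic fibroblasts (MEFs) labelled 2ndMEF-KOS-ZERT2, all from 1 clone and on a hybrid of C57Bl/6 and 129, were kept in ES medium with the cytokine LIF for 1, 3 or 6 days. They received doxycycline (1.5 µg/ml) with tamoxifen (200 nM), doxycycline without tamoxifen, tamoxifen without doxycycline, or neither, written here as Dox+Tmx+, Dox+Tmx-, Dox-Tmx+ and Dox-Tmx-. All 12 of these groups carry the same transgenes, so an effect of doxycycline itself cannot be told apart from that of the induced factors. Primary MEFs, on an F1 hybrid from V6.5 and in MEF medium, either carried Zscan4ERT2 (labelled MEF2 ZERT2) or were wild (labelled MEF3), and each line was labelled Tmx+ or Tmx-. The growth notes of the wild MEFs labelled Tmx+, and of replicate 2 of Dox-Tmx+ on day 1, mention no tamoxifen. iPS cells carrying KOS-ZERT2, from a second clone, and v6.5 ES cells were grown in ES medium with LIF. Whether the 2 samples of a group are separate cultures is not stated in the labels; the tests therefore reflect the spread between these samples alone, which may be technical.

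Fibroblasts that are forced to express reprogramming factors usually silence their own programme, with its matrix, cytoskeletal and contractile genes, before the pluripotency network is switched on. In such systems the letters KOS usually stand for Klf4, Oct4 and Sox2. ERT2 is a hormone receptor domain that keeps a fused protein inactive until a tamoxifen compound binds it, and Zscan4 is a gene active in early embryos and, at any time, in a small share of ES cells. Transcripts that are high in fibroblasts, lower in ES cells and raised during induction run against the general course of the change.

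The files give a 60-base oligonucleotide for every probe but no gene name, description or position, so members are named by probe only, and neither their function nor the labelled cell types' marker genes could be checked. A pair of these oligonucleotides is shown, chosen after the values were seen because each has a reading frame with no stop codon along its whole length; both are printed 5′ to 3′ as the files give them, with no part singled out.
Z00034905-1: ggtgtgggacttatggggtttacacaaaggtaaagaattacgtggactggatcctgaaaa
Z00020490-1: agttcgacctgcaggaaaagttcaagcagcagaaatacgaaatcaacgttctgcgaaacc
On day 6 Z00034905-1 had a log2 ratio to the reference of 0.29 and 0.26 in Dox+Tmx+ cells, against -1.40 and -1.63 in Dox-Tmx+ cells. Z00020490-1 had 0.42 and 0.46 in Dox+Tmx+ cells on day 6, against -0.71 and -0.64 in Dox-Tmx+ cells. For both probes the induced arrays lay above the uninduced ones. A frame with no stop was present in 109 of the 133 members (82.0%) and in 20533 of the 25030 matrix probes (82.0%), so it sets nothing apart.

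The oligonucleotides of the members were much like the rest of the array in base content. Their median G+C content was 43.3% (interquartile range 38.3% to 46.7%), against 43.3% (36.7% to 48.3%) over all matrix probes. The polyadenylation motif AATAAA, read on the strand given, occurred in 12 members (9.02%), against 7.90% of all matrix probes. The motif ATTTA, the core of AU-rich elements, occurred on that strand in 12 members (9.02%), against 7.73% of all matrix probes. On either strand AATAAA was found in 15 members (11.3%), against 11.3% of all matrix probes, and ATTTA in 23 members (17.3%), against 15.2% of all matrix probes. The 2 motifs share letters and may overlap in a probe. No member shared 20 or more bases with another member. Matched against 32851 RefSeq promoter windows (GRCm38.p6), 1 member had a 30-base stretch in common with a window, which is too little to name it. Of the 42006 probes on the array, 550 had such a stretch.

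The values that chose the members came first. Over the 133 members the mean of untreated primary MEFs had a median of 3.48 on the log10 scale (lowest 2.51, highest 5.40), against 2.48 for the mean of iPS and ES cells (1.09 to 4.11). The difference between Dox+Tmx- and Dox-Tmx- cells had a median of 0.62 on day 3 and 0.55 on day 6, also in log10 units. It was larger on day 3 in 75 members and larger on day 6 in 58. The nearest probe inside the day 3 threshold had 0.301 and the nearest outside it 0.296; on day 6 these were 0.307 and 0.297. Just inside the condition on the fibroblast level lay a probe at 2.51, just outside it one at 2.48, and for the excess over iPS and ES cells these were 0.607 and 0.596. A further 72 probes passed on day 3 only and 27 on day 6 only. These values describe the choice and carry no test.

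All later values are log2 ratios of sample to reference, after background correction and normalization of the scanner files. They compare a probe with itself between groups, and they do not compare levels between probes. Depending on the array, the sample channel was well above background for 54.9% to 77.1% of all probes. All 133 members passed the filter on dim probes, and 116 were well above background on every array. In iPS cells 117 members (88%), and in ES cells 120 (90.2%), were well above background on both arrays. Of all probes 63.8% and 67.2% were, so most members were detected in pluripotent cells too. The median member differed between the 2 arrays of a group by 0.04 to 0.19. In bulk RNA, fewer cells of a type and less RNA per cell cannot be told apart.

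Set against each member's own mean in untreated primary MEFs, the median member stood highest in induced secondary MEFs and lowest in pluripotent cells. Between them came primary MEFs and, below those, uninduced secondary MEFs. On day 1 the median member stood at 0.48 and 0.52 on the 2 Dox+Tmx+ arrays and at 0.53 on both Dox+Tmx- arrays, against -1.10 and -1.14 in Dox-Tmx+ cells and -1.19 and -1.18 in Dox-Tmx- cells. On day 3 it stood at 1.33 and 1.30 in Dox+Tmx+ cells and 1.31 and 1.29 in Dox+Tmx- cells, against -0.84 and -0.85 in Dox-Tmx+ cells and -0.80 and -0.82 in Dox-Tmx- cells. On day 6 it stood at 1.50 and 1.47 in Dox+Tmx+ cells and 1.47 and 1.44 in Dox+Tmx- cells, against -0.60 and -0.44 in Dox-Tmx+ cells and -0.55 and -0.59 in Dox-Tmx- cells. For the median member, induced secondary MEFs were thus above the primary MEFs and uninduced ones below them on all 3 days. The median of every induced array lay above that of every uninduced one. The rule asked for Dox+Tmx- above Dox-Tmx- cells on days 3 and 6 and for primary MEFs above pluripotent cells. This order of the groups was thus partly set by the choice. Single members varied. By group means, 51 members lay below the primary level in Dox+Tmx- cells on day 1 and 10 on day 6. In Dox-Tmx- cells 22 lay above it on day 1 and 30 on day 6. Primary MEFs lay between -0.03 and 0.06 on all 8 arrays; the 4 untreated arrays are near 0 by construction, the 4 labelled Tmx+ are not. iPS cells were at -2.83 and -2.94 and ES cells at -2.82 and -2.68. All 133 members lay below the primary level on each of these 4 arrays, and being lower there was part of the choice.

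The 3 members closest to this median course over the 18 group means were Z00063179-1 (Pearson r 0.99), Z00022591-1 (0.989) and Z00005831-1 (0.989). Z00063179-1 measured 0.94 and 0.89 in Dox+Tmx+ cells on day 6, against -0.93 and -0.86 in Dox-Tmx+ cells. Primary MEFs labelled Tmx+ lay close to the uninduced cells for this probe, at -1.11 and -0.93 in the MEF2 ZERT2 line and -0.72 and -0.71 in the MEF3 line. Over all members r ran from 0.324 to 0.99 with a median of 0.913. All members were read on the same arrays against the same reference, and each is part of the median. These coefficients therefore only describe how alike the courses were.

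Doxycycline without tamoxifen had already raised most members on day 1, a day the rule did not use. By limma's moderated test across all probes tested, at an adjusted p under 0.05, 120 of 133 members (90.2%) were called higher in Dox+Tmx- than in Dox-Tmx- cells and 2 were called lower, where 23.5% of all 33099 probes tested were called higher and 22.8% lower. Among 1919 other fibroblast-high probes, which met the level conditions but not the day 3 and day 6 conditions, 24.0% were called higher and 48.2% lower. The median difference was 1.43 (log2) over the members (interquartile range 0.74 to 2.15), -0.02 over all probes and -0.18 over the other fibroblast-high probes. Called and at least 1 log2 unit higher were 90 members. Members and other fibroblast-high probes were separated by the same treatment on days 3 and 6, so the contrast between them partly restates the choice.

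The largest change on day 1 belonged to Z00036124-1. It measured 2.61 and 2.64 in Dox+Tmx- cells, against -3.87 on both Dox-Tmx- arrays, a difference of 6.5 ± 0.06 (log2, SE; limma adjusted p = 2.6e-28). Z00031513-1 followed, with 2.64 and 2.67 in Dox+Tmx- cells, against -1.68 and -1.71 in Dox-Tmx- cells, a difference of 4.35 ± 0.09 (SE; limma adjusted p = 9.24e-22). Probes named for this comparison had to have induced and uninduced arrays that did not overlap. The 2 members called lower were Z00074799-1 and Z00022184-1. Z00074799-1 measured 2.93 and 2.97 in Dox+Tmx- cells, against 3.68 and 3.43 in Dox-Tmx- cells, a difference of -0.61 ± 0.11 (SE; limma adjusted p = 5.19e-05). Z00022184-1 measured -0.29 and -0.43 in Dox+Tmx- cells, against 0.06 and -0.05 in Dox-Tmx- cells; its difference of -0.37 ± 0.11 (SE; limma adjusted p = 0.00812) was no longer called without Dox-Tmx- replicate 1 or without Dox+Tmx- replicate 2, with adjusted p-values of 0.0669 and 0.0892. For the other members called on this day, leaving out 1 replicate moved the count of those called higher between 118 and 122.

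Cultures that also received tamoxifen gave a second reading of the same treatment in samples that took no part in the choice, though on each day they lay on the same slides as the cultures without tamoxifen, with Dox+ arrays on one slide and Dox- arrays on another. A slide difference would therefore enter both readings alike, and it cannot be told apart from doxycycline here. In Dox+Tmx+ against Dox-Tmx+ cells, 119 members were called higher and 3 lower on day 1, where 23.1% of all probes were called higher and 22.0% lower. On day 3, 132 members were called higher and none lower, where the shares of all probes were 32.9% and 27.7%. On day 6, again 132 were called higher and none lower, where they were 31.1% and 28.0%. At an unadjusted p under 0.05 the day 3 and day 6 tests also found 132 members each, so the count of lower members is 0 there by limma at either level. Over the members the median difference (log2) came to 1.39 for day 1, 2.09 for day 3 and 1.96 for day 6, against -0.01, 0.00 and 0.00 over all probes. The other fibroblast-high probes ran the opposite way, with 51.4% called lower on day 1, 66.4% on day 3 and 71.7% on day 6, but members and other probes were separated by the same treatment in the parallel cultures, so the contrast between them partly restates the choice.

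The members called on day 1 were largely the same with and without tamoxifen, and these 2 tests share no array, although both set the same pair of slides against each other and are not independent in that respect. Called higher in both were 118 members, which is 98.3% of the 120 called without tamoxifen and 99.2% of the 119 called beside it. Beside tamoxifen, 119 members were called higher on all 3 days. Another 11 were called higher on days 3 and 6 and not called on day 1, and 2 were called lower on day 1 and higher on both later days. Those 2 were Z00074799-1 and Z00022925-1. Z00074799-1 measured 3.36 and 3.17 in Dox+Tmx+ cells on day 6, against 1.85 and 2.40 in Dox-Tmx+ cells. On day 1 it measured 2.81 and 2.87 in Dox+Tmx+ cells, against 3.70 and 3.77 in Dox-Tmx+ cells, a difference of -0.90 ± 0.11 (SE; limma adjusted p = 2e-07). Between these days the induced arrays of this probe moved less than the uninduced ones, which ended lower. Z00022925-1 stood at 6.69 and 6.89 in Dox+Tmx+ cells on day 6, against 4.55 and 4.80 in Dox-Tmx+ cells. On day 1 it stood at 1.19 and 1.23 in Dox+Tmx+ cells, against 1.71 and 1.47 in Dox-Tmx+ cells. Its day 1 difference of -0.38 ± 0.12 (SE; limma adjusted p = 0.0102) was not called without replicate 1 of Dox-Tmx+ (adjusted p = 0.166) or of Dox+Tmx+ (adjusted p = 0.0618).

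Z00064324-1 had the largest doxycycline response of the members beside tamoxifen on days 3 and 6, and it also led by the smaller of its 2 differences in the rule. It measured 6.67 and 6.56 in Dox+Tmx+ cells on day 3, against -0.06 and -0.14 in Dox-Tmx+ cells, a difference of 6.72 ± 0.10 (SE; limma adjusted p = 1.43e-25). On day 6 it measured 6.13 and 6.04 in Dox+Tmx+ cells, against -0.02 and 0.01 in Dox-Tmx+ cells. It was near -0.9 in iPS and ES cells, so a transcript modestly above that level in primary MEFs (0.31 to 1.05 on the 8 arrays) went far beyond the fibroblast level. Z00047519-1, second when members are ordered by the smaller of their day 3 and day 6 differences in the rule, measured 3.35 and 3.34 in Dox+Tmx+ cells on day 6, against -1.50 and -1.61 in Dox-Tmx+ cells. Z00018673-1 rose second most beside tamoxifen on day 6, with 3.34 and 3.45 in Dox+Tmx+ cells, against -2.17 and -2.68 in Dox-Tmx+ cells, a difference of 5.82 ± 0.10 (SE; limma adjusted p = 3.74e-24). These probes were chosen for large changes, so the wide gap between their induced and uninduced arrays comes with the choice.

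The 1 member not called higher beside tamoxifen on day 3 or on day 6 was Z00022184-1. On day 6 it measured 0.91 and 0.73 in Dox+Tmx+ cells, against 0.52 and 1.05 in Dox-Tmx+ cells, so the groups overlapped. Without tamoxifen it measured 1.84 and 1.71 in Dox+Tmx- cells on day 6, against 0.46 and 0.38 in Dox-Tmx- cells, the gap by which the rule took it in.

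The Dox+ and Dox- slides of a day were scanned on the same day. Over the 3 days beside tamoxifen together, 132 members were called higher, where 35.2% of all probes were. With slide as a random block over the 12 arrays of these cultures (6 slides), 129 members were called higher, where 19.0% of all probes were; the same model of these 12 arrays without the block called 131 members, where 27.8% of all probes were called. The median difference over members was 1.86 (log2) in the fit of all arrays and in the fit with the block. Each slide held only Dox+ or only Dox- arrays, so the block cannot tell slide from doxycycline. The model of the 12 arrays also fitted the same doxycycline effect to all 3 days.

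The size of the doxycycline effect differed between day 6 and day 1 in most members (78.2%). It also did in 75% of the other fibroblast-high probes, so a change in size does not set the members apart from them. In a direct test of the day 6 effect minus the day 1 effect beside tamoxifen, 82 members were called larger on day 6 and 22 smaller, and 29 were not called. Over all probes, 24.0% were called with a more positive effect on day 6 and 21.5% with a more negative one. The median change over members was 0.57 (log2, interquartile range 0.03 to 1.34), against 0.02 over all probes and -0.54 over the other fibroblast-high probes. Because the members had to be raised on days 3 and 6 in the parallel cultures and nothing was asked of day 1, a lean to the later day is partly set by the choice.

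Z00050172-1 gained most. On day 6 it measured 4.21 and 4.15 in Dox+Tmx+ cells, against -0.74 and -0.66 in Dox-Tmx+ cells. On day 1 it measured -0.97 and -0.82 in Dox+Tmx+ cells, against -0.98 and -1.01 in Dox-Tmx+ cells, a narrow gap, and the effect on day 6 was larger by 4.78 ± 0.10 (log2, SE; limma adjusted p = 7.23e-21). Z00074397-1 came next; its effect grew by 3.95 ± 0.13 (SE; limma adjusted p = 1.81e-17), and on day 6 it measured 4.14 and 4.05 in Dox+Tmx+ cells, against -0.52 and -0.55 in Dox-Tmx+ cells. On day 1 it averaged -0.86 in Dox+Tmx+ cells, against -1.53 in Dox-Tmx+ cells, so the induced cells gained far more than the uninduced ones.

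Z00036124-1, the widest on day 1, had the largest loss. On day 6 it measured 3.23 and 3.17 in Dox+Tmx+ cells, against 0.09 and 0.12 in Dox-Tmx+ cells. On day 1 it measured 2.71 and 2.75 in Dox+Tmx+ cells, against -3.77 and -3.98 in Dox-Tmx+ cells, and the effect on day 6 minus that on day 1 was -3.52 ± 0.09 (log2, SE; limma adjusted p = 8.05e-20). The induced level moved much less than the uninduced one, which climbed toward that of primary MEFs, which ran from 2.35 to 2.73 on 8 arrays. Z00072535-1 had the next largest loss, with 3.17 and 2.96 in Dox+Tmx+ cells on day 6, against 1.23 and 1.73 in Dox-Tmx+ cells, and a change of the effect of -2.60 ± 0.15 (SE; limma adjusted p = 2.03e-13).

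Uninduced cells differed between day 6 and day 1, on arrays that also differ in slide and scan day, which cannot be told apart from time in culture. In Dox-Tmx+ cells 88 members were called higher on day 6 than on day 1 and 27 lower, where 27.7% of all probes were called higher and 26.2% lower. The median change was 0.47 (log2) over the members, against 0.65 over the other fibroblast-high probes, of which 70.9% were called higher. The extremes upward were as follows. Z00036124-1 gained 3.98 ± 0.06 (SE; limma adjusted p = 3.6e-23). Z00076757-1 measured -0.77 and -0.32 on day 6, against -4.22 and -4.30 on day 1. Downward, Z00046024-1 measured 1.82 and 2.35 on day 6, against 3.68 and 3.85 on day 1, and Z00062597-1 measured 2.11 and 2.45 on day 6, against 3.83 and 3.95 on day 1. That day 6 and day 1 arrays did not overlap was a condition for naming these 4 probes.

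Against primary MEFs labelled Tmx+, which took no part in the choice but come from the same lines as those that did, induced cells exceeded the fibroblast level for most members. In Dox+Tmx+ cells on day 6, 118 members were called higher than the mean of both primary lines, 9 lower and 6 neither, where 34.5% of all probes were called higher and 33.7% lower. The median difference was 1.45 (log2) over members, 0.00 over all probes and -0.83 over the other fibroblast-high probes. Medium, line, slide and scan day differ between secondary and primary cells and cannot be told apart from induction in this comparison.

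Z00064324-1 and Z00018673-1 lay farthest above the primary level, by 5.38 ± 0.08 and by 5.35 ± 0.09 (log2, SE), with limma adjusted p-values of 3.56e-25 and 6.76e-25. Z00018673-1 measured 3.34 and 3.45 in Dox+Tmx+ cells on day 6, against -1.96 and -1.94 in MEF2 ZERT2 Tmx+ cells and -1.98 and -1.95 in MEF3 Tmx+ cells. Farthest below it lay Z00051364-1, with -0.41 and -0.39 in Dox+Tmx+ cells, against 0.83 and 1.16 in MEF2 ZERT2 Tmx+ cells and 1.47 and 1.37 in MEF3 Tmx+ cells, a difference of -1.61 ± 0.10 (SE; limma adjusted p = 6.7e-13). That probe was not well above background on any secondary array of day 1, so its levels there are only bounds. Z00022184-1 was also lower, by -1.33 ± 0.10 (SE; limma adjusted p = 7.08e-12).

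Uninduced secondary cells were below the primary level for most members. In Dox-Tmx+ cells on day 6, 91 members were called lower than primary MEFs labelled Tmx+ and 23 higher, where 27.6% of all probes were called lower and 23.6% higher. The median difference was -0.54 (log2) over members, -0.01 over all probes and -0.02 over the other fibroblast-high probes, of which 38.9% were called lower. This comparison and the one before it share their primary arrays, so the counts are not independent of each other. The rule asked for a high primary level and for Dox-Tmx- cells below Dox+Tmx- cells. Where members stand against primary MEFs is thus partly set by the choice in both comparisons. Z00053992-1 was lowest, with -1.69 and -1.64 in Dox-Tmx+ cells, against 3.14 and 3.38 in MEF2 ZERT2 Tmx+ cells and 3.07 and 3.01 in MEF3 Tmx+ cells, a difference of -4.81 ± 0.06 (SE; limma adjusted p = 7.69e-26). In the same probe Dox+Tmx+ cells of day 6 measured 2.17 and 2.23, between the uninduced and the primary values. Z00061371-1 was also lower, at -0.37 and -0.59 in Dox-Tmx+ cells, against 2.17 and 2.28 in MEF2 ZERT2 Tmx+ cells and 2.18 and 2.61 in MEF3 Tmx+ cells. In the other direction Z00022925-1 measured 4.55 and 4.80 in Dox-Tmx+ cells, against 2.54 and 2.70 in MEF2 ZERT2 Tmx+ cells and 3.52 and 3.61 in MEF3 Tmx+ cells. Z00016402-1 measured 1.07 and 1.20 in Dox-Tmx+ cells, against 0.22 and 0.40 in MEF2 ZERT2 Tmx+ cells and 0.09 and 0.04 in MEF3 Tmx+ cells.

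Tamoxifen, which activates Zscan4ERT2, moved few members beside doxycycline on day 1. Called were 2 of 133 members, both higher in Dox+Tmx+ than in Dox+Tmx- cells, where 0.378% of all probes were called either way; 17 members had an unadjusted p under 0.05. The median difference was 0.00 (log2). For 129 members the 95% interval of the difference lay within 0.5 log2 units of 0, and over all members the intervals reached from -0.62 to 0.68. Z00053992-1 measured 0.78 on both Dox+Tmx+ arrays, against 0.35 and 0.38 in Dox+Tmx- cells, a difference of 0.42 ± 0.07 (SE; limma adjusted p = 0.00345). Z00016692-1 measured 0.54 and 0.62 in Dox+Tmx+ cells, against 0.32 and 0.36 in Dox+Tmx- cells, a difference of 0.24 ± 0.05 (SE; limma adjusted p = 0.0364). Neither call held when Dox+Tmx- replicate 1 or Dox+Tmx+ replicate 1 was left out, and the count was then 0; without replicate 2 of either group it was 1, and with only the 4 arrays compared it was 0.

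On later days the same difference uses arrays of the rule and is given as values alone. Over the members the median of Dox+Tmx+ minus Dox+Tmx- was -0.07 on day 3 (lowest -0.84, highest 1.06) and 0.06 on day 6 (lowest -1.01, highest 1.38). The highest value on both days was that of Z00050172-1, which measured 4.21 and 4.15 in Dox+Tmx+ cells on day 6, against 2.82 and 2.78 in Dox+Tmx- cells. The lowest on day 6 was that of Z00016353-1, with -0.46 and -0.54 in Dox+Tmx+ cells, against 0.57 and 0.45 in Dox+Tmx- cells. The lowest on day 3 was that of Z00022184-1, with 0.53 and 0.55 in Dox+Tmx+ cells, against 1.44 and 1.31 in Dox+Tmx- cells. Without doxycycline, Dox-Tmx+ minus Dox-Tmx- had a median of 0.01 on day 1, 0.00 on day 3 and 0.05 on day 6 over the members, and no member reached 0.6 in size on any of these days. In primary MEFs the median of Tmx+ minus Tmx- was 0.01 in the MEF2 ZERT2 line (lowest -0.66, highest 0.72). In the MEF3 line it was 0.03 (lowest -0.42, highest 0.43). Tmx+ and Tmx- arrays of each line lay on separate slides.

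Both kinds of pluripotent cell held the members below the level of primary MEFs, as the rule asked of their mean. Since all 4 of these arrays served the rule, differences between iPS and ES cells are descriptions with no p-value, and nothing is read from the counts. In the fit 10 members passed the threshold as higher in iPS cells and 23 as lower, where 2.92% of all probes passed as higher, 5.15% as lower and 8.07% either way. Of these 33 member differences 4 reached 1 log2 unit, and 21 were left without either iPS replicate or without ES replicate 2. The median difference was -0.06 (log2) over members and 0.00 over all probes. Z00057363-1 measured -3.96 and -4.03 in iPS cells, against -6.88 and -6.68 in ES cells, a difference of 2.78 ± 0.08 (SE). Z00070458-1 measured -6.17 and -6.21 in iPS cells, against -8.78 and -8.71 in ES cells, a difference of 2.56 ± 0.07 (SE). In the other direction Z00053992-1 measured -1.67 and -1.74 in iPS cells, against -0.15 and -0.30 in ES cells, and Z00035235-1 measured -3.03 and -3.08 in iPS cells, against -1.78 and -1.74 in ES cells. That the arrays of the 2 cell types did not overlap was a condition for naming these 4 probes. All iPS and ES arrays share 1 slide.

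The primary lines were close for the median member, with a median difference of -0.03 (log2) between untreated MEF2 ZERT2 and untreated MEF3 cells, and farther apart for several single ones. These 4 arrays set the fibroblast level by which members were chosen, so the differences between them are again descriptions with no p-value. In the fit 25 members passed the threshold as higher in MEF2 ZERT2 cells and 21 as lower, where 4.93% of all probes passed as higher, 5.13% as lower and 10.1% either way, and the 46 became 29 without MEF2 ZERT2 Tmx- replicate 1. Each line lay on a slide of its own with its own scan day, so slide and line cannot be told apart. Z00026561-1 measured 2.49 and 2.38 in MEF2 ZERT2 cells, against 0.26 and 0.16 in MEF3 cells, a difference of 2.23 ± 0.08 (SE). Z00027803-1 measured 2.17 and 2.08 in MEF2 ZERT2 cells, against 0.13 and 0.01 in MEF3 cells. The courses of these 2 probes were close in other groups too: on day 6 Z00026561-1 measured 3.90 and 3.94 in Dox+Tmx+ cells, against -0.30 and -0.15 in Dox-Tmx+ cells, while Z00027803-1 measured 3.06 and 3.08 in Dox+Tmx+ cells, against -0.42 and -0.21 in Dox-Tmx+ cells. Lower in MEF2 ZERT2 cells were Z00070384-1, with -0.86 and -0.60, against 0.17 and 0.21 in MEF3 cells, and Z00034905-1, with -0.98 and -0.74, against -0.01 and -0.12 in MEF3 cells.

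For 8 members another probe on the array, outside the series matrix, shares 20 to 55 bases on the same strand and passed the filter, which gives a separate spot for an overlapping stretch of sequence. Over 5 comparisons (doxycycline on day 1 without tamoxifen, doxycycline on days 1, 3 and 6 beside it, and Dox+Tmx+ cells of day 6 against primary MEFs) the member and its partner differed by a median of 0.08 log2 units and by at most 0.53. In all 36 of the 40 values where the member was called, the partner was called in the same direction. Z00035599-1, for example, had a doxycycline effect of 3.73 beside tamoxifen on day 6, and Z00074425-1, which shares 32 bases with it, had 3.62. Partners hybridise the same labelled RNA, so they repeat the spot and not the sample.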

How the data were processed

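Per the labels, Cy3 carried the sample and Cy5 the reference on all 36 arrays, with no dye swap. The deposited mean spot intensity and median local background intensity came, per the file headers, out of Feature Extraction 9.5.1.1 (Agilent) and are not normalized. Its deposited log10 ratios (red over green, sign turned here) carry that software's own background and dye correction, per the file headers. The series matrix was deposited by the authors as values read here as log10 sample brightness (column medians 2.37 to 2.46, r of 0.977 to 0.994 with the log10 sample channel); how it was scaled and centred is unknown here.

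Limma 3.58.1 (R 4.3.3) was used for normexp (offset 50, local backgrounds marked as outliers replaced by the array median), loess within arrays, and a fit of 1 mean per group over all arrays (18 residual degrees of freedom) with eBayes, two-sided tests and Benjamini-Hochberg adjustment over the probes tested. Duplicate spots were averaged. Of 42006 probes, 33099 passed the filter, which asked for a sample signal well above background on each array of 1 group or more. Simulated data for doxycycline beside tamoxifen on day 6 (33099 probes, noise independent between probes) gave back 89 of 100 changes of 0.5 and 100 of 100 changes of 1 (log2), with 10 false calls.

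Members, lists and tests were chosen with earlier results of these data known, and the change over time in Dox-Tmx+ cells was added after seeing the data. Gene lists and cell type markers could not be applied, as probes carry no gene name here. Named are, per comparison and direction, at most 2 members with the largest called change (well above background in all groups compared, pairs of groups not overlapping), the 2 leading by the rule, the 3 most like the median, a partner probe, and, chosen after their values were seen, the 2 with a printed sequence, the 1 member not called and the extremes of untested differences. Differences that use arrays of the rule are descriptions: no p-value is given for them, and where a count past the threshold is printed (iPS against ES, untreated MEF2 ZERT2 against MEF3, both planned as tests) nothing is read from it. The number of arrays limits the precision.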

Additional observations from a re-analysis of the deposited data

Results flagged for a closer look

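The doxycycline effect beside tamoxifen differed between day 6 and day 1 in 104 of 133 members by the direct test of the difference (limma, adjusted p under 0.05), where 45.5% of all probes tested were called. Of the other fibroblast-high probes 75% were called. Among the members the effect was larger on day 6 in 82 and smaller in 22. The largest gains were 4.78 in Z00050172-1 and 3.95 in Z00074397-1, and the largest losses were -3.52 in Z00036124-1 and -2.60 in Z00072535-1 (all log2). Every one of these 4 stayed called under all alternatives run. Day 1 arrays were scanned on another day than day 6 arrays, and each day's Dox+ and Dox- arrays lay on separate slides; the part of slide and scan in these changes was not tested.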

How the results depend on the processing

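Counts of members called for doxycycline on any day, for the change of its effect, and against primary MEFs stayed within 1.5 times under every alternative run. For tamoxifen beside doxycycline on day 1 the 2 calls became 1 with outlier backgrounds as deposited, with the deposited log ratios or with no filter, 4 with the series matrix and 0 with only the arrays compared; leaving out 1 replicate gave 0 to 1. The next counts come from arrays that the rule used and support nothing. The iPS against ES count of 33 became 57 with the series matrix and 21 to 23 without 1 replicate (lowest without either iPS replicate or ES replicate 2). The MEF2 ZERT2 against MEF3 count of 46 became 29 with outlier backgrounds as deposited and 29 to 37 without 1 replicate. With outlier backgrounds as deposited the split of calls was 10 higher and 12 lower for iPS against ES (10 and 23 with them replaced by the array median) and 19 higher and 10 lower between the primary lines (25 and 21 with them replaced). The cause was not tested. Of 490 values of named probes under alternatives, 473 kept their call and 17 lost it, and none reversed.

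With the replicate number as a replicate block the counts were 119, 132 and 132 for doxycycline beside tamoxifen on days 1, 3 and 6, 2 for tamoxifen beside doxycycline, 32 for iPS against ES and 45 between the primary lines. Deviations of same-numbered samples correlated at -0.605 to 0.527 over 153 pairs of groups (median -0.001, 76 above 0). The numbers thus showed no pairing common to all groups, and pairing between some of them was not settled. Moving a threshold by 0.1 gave 92 to 184 members, and applying the rule to the scanner files gave 113, of which 95 are among the 133. Signal over background limits 4 members in at least 1 secondary group; 14 members were below the limit on both iPS arrays and 5 on both ES arrays.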
